A study of Mus musculus with 16 samples.

Results

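Calcium handling genes of heart muscle were followed in pieces of ascending aorta and aortic valve from mice that carry, or do not carry, 1 inactive allele of Eln, the gene of elastin. The set holds 9 genes: Atp2a2, Pln, Ryr2, Casq2, Trdn, Hrc, Jph2, Cacna1c and Slc8a1. They were matched by symbol, keeping probe sets annotated to exactly 1 gene, which gave 27 of the 45037 probe sets tested (9 of 18193 genes). All 9 genes were measured, with 6 probe sets for Atp2a2, 6 for Trdn, 4 for Slc8a1, 3 for Pln, 2 each for Ryr2, Jph2 and Cacna1c, and 1 each for Casq2 and Hrc. No filter on low values was applied.

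The study comprised 16 Affymetrix mouse gene expression arrays, 4 for each tissue and genotype: Eln+/+ or Eln+/-, aorta or valve. All mice were 30 days old, and no treatment, strain or sex is given in the labels. A valve piece was cusp, annulus and root together, taken with the aorta from a dissected heart. RNA of each specimen was amplified and hybridized without pooling, so tests measure the spread between specimens, and the 4 arrays a group limit the precision. Whether aorta and valve specimens came from the same mice is not given in the labels, and the tissue comparisons treat them as independent. Values are log2 ratios, in all but 1 of the 27 probe sets relative to the probe set's own median over the 16 arrays. The exception, Slc8a1 1420210_at, had a median ratio of 0.424 and values from -1.53 to -1.02, so its scale is set by a reference above its own median. Such ratios hold no signal level, so levels were compared between arrays and never between genes. Each gene is represented by whichever of its probe sets varied most (SD, 16 arrays), and all other probe sets are described beside it.

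In a heart muscle cell, the L-type channel, whose pore is encoded by Cacna1c, admits calcium during the action potential, and this opens the ryanodine receptor Ryr2 in the sarcoplasmic reticulum (SR), the internal calcium store. Casq2 (calsequestrin) buffers calcium inside the store, Trdn (triadin) and Hrc (histidine-rich calcium binding protein) are linked to the release complex, and Jph2 (junctophilin) holds the store membrane close to the surface membrane. The pump Atp2a2 (SERCA2) returns calcium to the store under the restraint of Pln (phospholamban), and the exchanger Slc8a1 (NCX1) expels it from the cell. Atp2a2, Cacna1c and Slc8a1 are also used by arterial smooth muscle, whereas Casq2, Trdn and Hrc are best known from striated muscle.

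Promoters were examined because several of these genes moved together between the tissues. RefSeq promoter windows (GRCm38.p6, 250 bases before to 50 after the start of the gene) were given for 7 of the 9 genes, in 10 windows. The motifs searched, on both strands, were the TATA box (letters TATAAA), the M-CAT element (letters CATTCC) and an E-box (letters CAGCTG). The TATA box was held by 13.6% of all 32851 windows and by the window of 1 gene of the set, Pln. The M-CAT letters were held by 14.7% of all windows and by 0 of the 10 windows here. The E-box was held by 16.3% of all windows and by 5 of the 10 windows here, from 4 genes, Pln, Hrc, Jph2 and Cacna1c. The 2 Jph2 windows overlap and hold the same match, and of the 3 Cacna1c windows 1 held it. The Pln and Hrc windows are shown, since these are the genes that were higher in the valve and had a match. The Pln window is chr10:53337436-53337735 and the Hrc window is chr7:45335019-45335318, both on the plus strand and written 5′ to 3′, with the motif matches in capitals. TATAAA begins at -219 in Pln, and CAGCTG begins at 9 in Pln and at -22 in Hrc. The first base of the gene is counted as 1, and no base is numbered 0. A match describes the letters only.
Pln: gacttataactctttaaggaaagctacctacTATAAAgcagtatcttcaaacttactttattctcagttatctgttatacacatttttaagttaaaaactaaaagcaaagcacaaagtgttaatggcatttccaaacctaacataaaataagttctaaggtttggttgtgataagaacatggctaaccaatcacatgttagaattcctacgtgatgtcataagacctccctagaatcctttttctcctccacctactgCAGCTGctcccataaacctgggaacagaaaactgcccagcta
Hrc: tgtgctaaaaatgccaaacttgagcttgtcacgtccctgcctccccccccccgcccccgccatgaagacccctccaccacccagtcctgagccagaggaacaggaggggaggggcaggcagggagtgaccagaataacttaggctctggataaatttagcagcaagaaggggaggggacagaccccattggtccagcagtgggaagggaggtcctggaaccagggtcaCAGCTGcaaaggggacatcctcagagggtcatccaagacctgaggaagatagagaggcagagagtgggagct

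Some features of the arrays bear on what follows. Eln, by its probe set of highest SD, averaged 0.30 ± 0.19 (SD, n = 4) in the Eln+/+ aorta and -0.12 ± 0.35 in the Eln+/- aorta, against -0.44 ± 0.58 and -1.71 ± 0.78 in the valve. The mean of 18 heart muscle markers, which include none of the 9 genes, lay from 0.48 to 2.12 on the 8 valve arrays and from -3.43 to -0.77 on the 8 aorta arrays. Aorta Eln+/+ replicate 2 (-1.02) and aorta Eln+/- replicate 3 (-0.77) had the highest aortic values, and the other 6 aorta arrays were at or below -2.64. Aorta Eln+/- replicates 2 and 4 stood apart by their T cell marker means of 1.97 and 1.22, and replicate 2 also had the lowest smooth muscle marker mean of the aorta (-0.88). Sex-linked signal was of the female kind on 8 of 8 Eln+/- arrays and on 2 of 8 Eln+/+ arrays, so genotype and this signal overlap strongly.

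Of the 9 genes, 6 were higher in the valve than in the aorta, the same 6 in both genotypes: the pump Atp2a2, its regulator Pln, and the store and release genes Ryr2, Casq2, Trdn and Hrc. Jph2, Cacna1c and Slc8a1 passed the test in neither genotype. In Eln+/+ mice the 6 of 9 called higher (limma, Benjamini-Hochberg adjusted p under 0.05) compare with 1.19% of all genes called higher and 0.126% called lower. Among Eln+/- mice the 6 of 9 compare with 4.41% called higher and 2.65% called lower. The median log2 difference of the set was 2.32 in Eln+/+ and 3.21 in Eln+/-, against -0.051 and -0.0030 over all genes. In whole pieces of tissue, more cells of a type and more RNA per cell cannot be told apart. The heart muscle markers moved with these genes: 17 of 18 were higher in the Eln+/+ valve and 10 passed the test, and in Eln+/- mice 18 of 18 were higher and 17 passed. The part of heart muscle content in the difference was not tested in the tissue comparison.

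**Figure D1:**
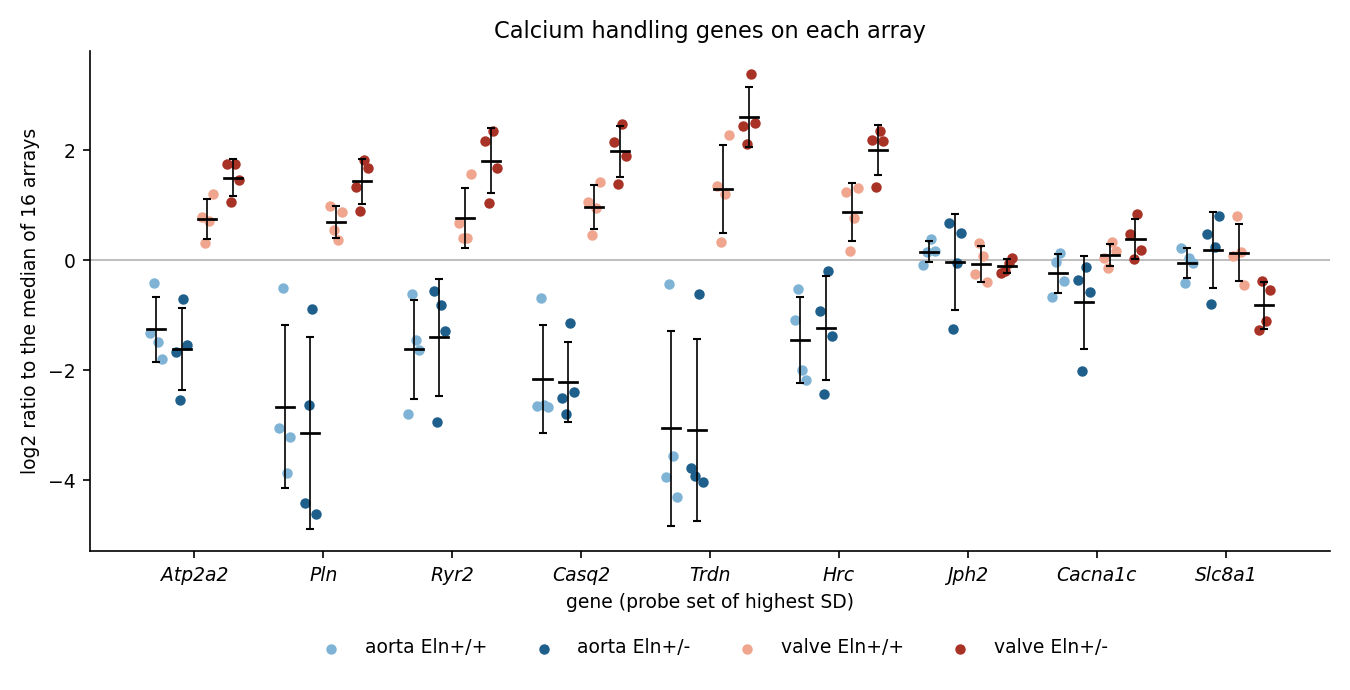
Log2 ratio to the median of 16 arrays (y axis) for the 9 calcium handling genes (x axis), 1 point per array, 4 arrays a group, with the group mean (bar) and SD (whisker). The aorta and valve arrays are apart for Atp2a2, Pln, Ryr2, Casq2, Trdn and Hrc, while Jph2 and Slc8a1 overlap between tissues.

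Trdn, a partner of the ryanodine receptor in the store membrane, had the largest tissue difference of the 9 in both genotypes. Its log2 values were -3.94, -0.43, -3.55 and -4.31 in the Eln+/+ aorta and 1.36, 0.33, 1.22 and 2.28 in the Eln+/+ valve. The Eln+/- values were -3.78, -3.92, -0.60 and -4.03 in the aorta and 2.44, 2.11, 3.40 and 2.49 in the valve. The tissues did not overlap in either genotype, and in each aorta group 1 array, the one of highest heart muscle signal, lay far above the other 3. The valve exceeded the aorta by 4.36 ± 0.82 (SE), or 20.5-fold, in Eln+/+ mice (limma, adjusted p = 0.0163). The difference was 5.70 ± 0.82, or 51.8-fold, in Eln+/- mice (limma, adjusted p = 0.000809). All 6 Trdn probe sets passed in both genotypes, with differences from 1.74 to 4.36 and from 2.28 to 5.70. The 6 share 1 gene, and the 2 whose names end in x_at may share probes with other transcripts.

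Casq2, the calcium buffer of the store, had the lowest adjusted p of the 9 shown probe sets in both genotypes. Trdn 1426144_x_at, not the shown one, was lower still (limma, adjusted p = 0.00115 in Eln+/+ and 7.9e-05 in Eln+/- mice). Its values were -2.64, -0.68, -2.63 and -2.67 in the Eln+/+ aorta and 1.07, 0.46, 0.95 and 1.43 in the Eln+/+ valve. Among Eln+/- mice they were -2.50, -2.80, -1.14 and -2.40 in the aorta and 2.16, 1.40, 2.49 and 1.89 in the valve. Again the tissues did not overlap, and the 2 aorta arrays with most heart muscle signal were the highest of their groups. Casq2 was higher in the valve by 3.14 ± 0.43 (SE), 8.79-fold, in Eln+/+ mice (limma, adjusted p = 0.00234) and by 4.19 ± 0.43, 18.3-fold, in Eln+/- mice (limma, adjusted p = 0.000124).

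Hrc, a calcium binding protein within the store, had values of -1.08, -0.53, -1.99 and -2.18 in the Eln+/+ aorta and 1.24, 0.16, 0.78 and 1.32 in the Eln+/+ valve. In Eln+/- mice its values were -0.91, -2.43, -0.19 and -1.38 in the aorta and 2.18, 1.34, 2.36 and 2.17 in the valve. Every valve array exceeded every aorta array. The difference was 2.32 ± 0.45 (SE), 4.98-fold, in Eln+/+ mice (limma, adjusted p = 0.0193) and 3.24 ± 0.45, 9.43-fold, in Eln+/- mice (limma, adjusted p = 0.000625).

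Ryr2, the release channel itself, had values of -2.79, -0.60, -1.45 and -1.63 in the Eln+/+ aorta and 0.68, 0.41, 0.40 and 1.57 in the Eln+/+ valve. For Eln+/- mice they were -0.56, -2.94, -0.82 and -1.28 in the aorta and 2.18, 1.05, 2.36 and 1.68 in the valve. The tissues were apart here too, although the aorta arrays spread more widely than the valve arrays. Ryr2 was higher in the valve by 2.38 ± 0.51 (SE), 5.22-fold, in Eln+/+ mice (limma, adjusted p = 0.0362) and by 3.21 ± 0.51, 9.28-fold, in Eln+/- mice (limma, adjusted p = 0.00157). The second Ryr2 probe set also passed in both, at 1.92 ± 0.34 and 2.86 ± 0.34.

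Pln, the small membrane protein that restrains the pump, had values of -3.06, -0.51, -3.87 and -3.21 in the Eln+/+ aorta and 1.00, 0.55, 0.37 and 0.88 in the Eln+/+ valve. The Eln+/- values were -4.41, -2.64, -0.88 and -4.61 in the aorta and 1.34, 0.90, 1.82 and 1.68 in the valve. The valve arrays stayed close together while the aorta arrays ranged over several log2 units. Pln was higher in the valve by 3.36 ± 0.73 (SE), 10.3-fold, in Eln+/+ mice (limma, adjusted p = 0.0396) and by 4.57 ± 0.73, 23.7-fold, in Eln+/- mice (limma, adjusted p = 0.00173). The 3 Pln probe sets passed in both genotypes, at 3.31 to 3.40 and 4.40 to 4.57.

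Atp2a2, the pump, had values of -1.32, -0.42, -1.48 and -1.79 in the Eln+/+ aorta and 0.79, 0.32, 0.71 and 1.21 in the Eln+/+ valve. Among Eln+/- mice they were -1.67, -2.53, -0.70 and -1.54 in the aorta and 1.75, 1.06, 1.76 and 1.46 in the valve. Valve and aorta did not overlap. The pump was higher in the valve by 2.01 ± 0.34 (SE), 4.03-fold, in Eln+/+ mice (limma, adjusted p = 0.0106) and by 3.12 ± 0.34, 8.68-fold, in Eln+/- mice (limma, adjusted p = 0.000158). Its 6 probe sets disagreed. Besides the one shown, 1416551_at passed in both genotypes (1.61 ± 0.35 and 2.37 ± 0.35), and 1437797_at gave 0.50 ± 0.26 in Eln+/+ mice and passed in Eln+/- mice at 1.23 ± 0.26. The other 3 passed in neither, and 1427251_at (-0.38 ± 0.28) and 1427250_at (-0.18 ± 0.17) were on the lower side in the Eln+/+ valve, the latter with no overlap between the tissues (0.089, 0.079, 0.14 and 0.058 in the aorta against -0.28, -0.044, 0.032 and -0.053 in the valve). With the median over its probe sets, the Atp2a2 difference in Eln+/+ mice was 0.55 (limma, adjusted p = 0.377) and in Eln+/- mice it was 1.16 and passed. The transcript that each probe set reads is not given in the files used here.

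**Figure D2:**
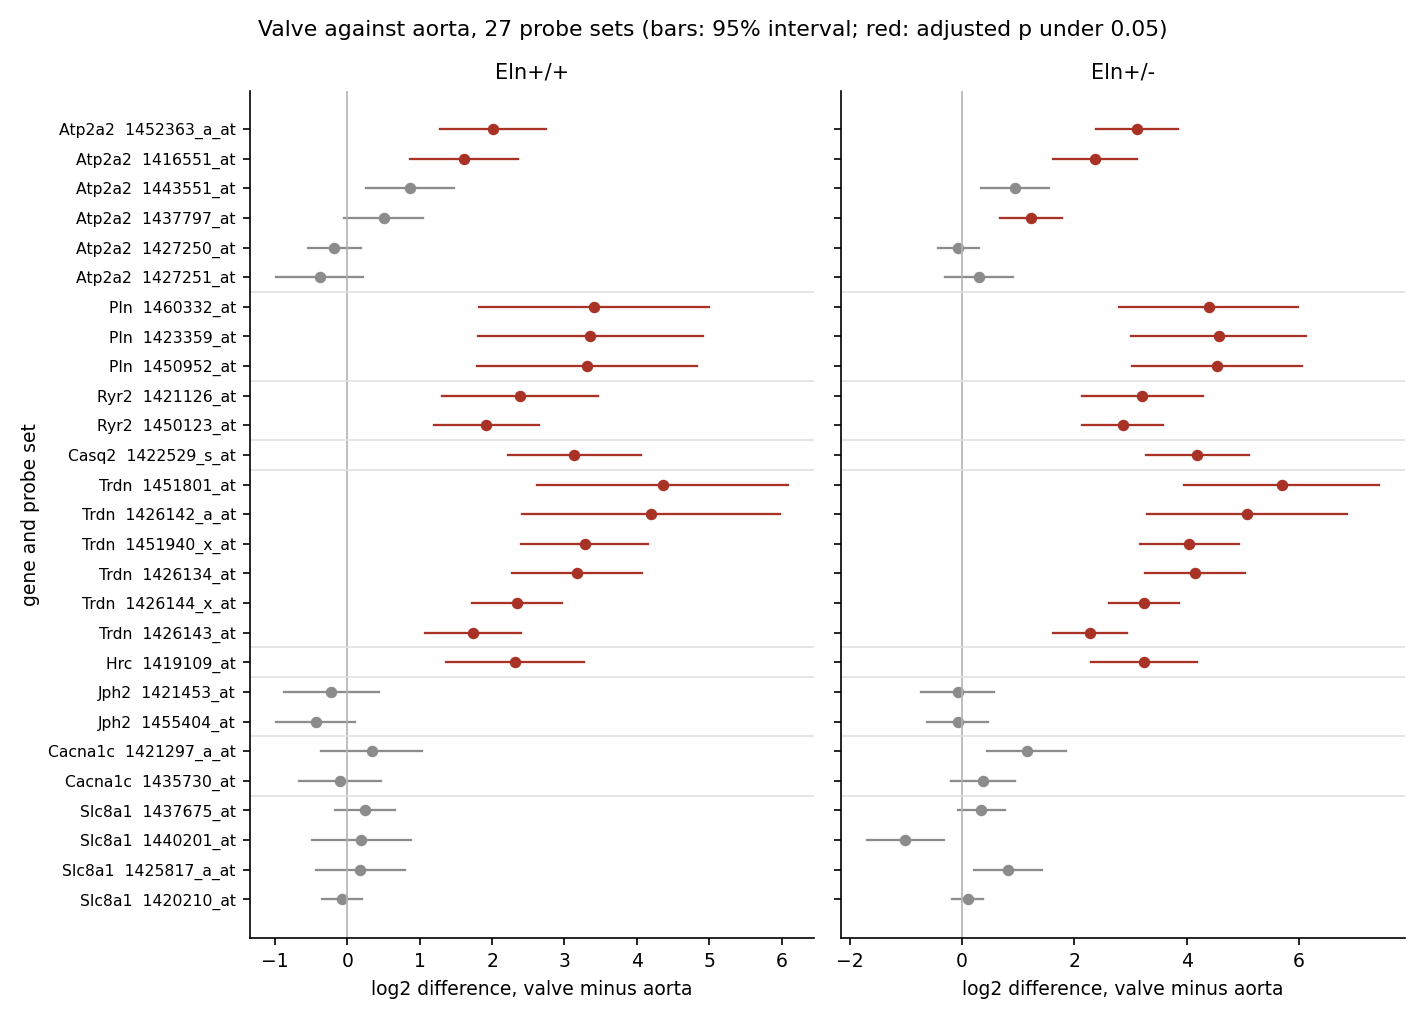
Valve minus aorta on the log2 scale (x axis) for each of the 27 probe sets (y axis, grouped by gene) in Eln+/+ (left) and Eln+/- mice (right), with 95% intervals from limma. Red marks adjusted p under 0.05, reached by 15 probe sets on the left and 16 on the right, and the Atp2a2 probe sets range from -0.38 to 2.01 in Eln+/+ mice.

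Over all 27 probe sets, 15 were called higher in the Eln+/+ valve (limma; 0.848% of all probe sets) and 16 in the Eln+/- valve (3.27%), and 0 were called lower (0.0977% and 2.54% of all probe sets). In Eln+/+ mice the groups did not overlap, with the valve higher, for 6 of 9 genes, against 4.19% of all genes, and with the valve lower for 0, against 4.26%. In Eln+/- mice the valve was higher in this way for 7 of 9, against 6.97% of all genes, and lower for 0, against 5.12%. By probe set, 16 of the 27 were apart in Eln+/+ mice with the valve higher, against 3.59% of all probe sets. In the same mice 1, Atp2a2 1427250_at, was apart with the valve lower, against 4.09%. Leaving out 1 array left 3 calls without aorta Eln+/+ replicate 1, and 2 calls without aorta Eln+/+ replicate 3 or 4 or without valve Eln+/+ replicate 1 or 4. The differences themselves stayed large in the fits without 1 array, from 3.94 to 5.23 for Trdn, 2.96 to 4.08 for Pln, 2.07 to 2.62 for Hrc and 1.99 to 2.72 for Ryr2. Casq2 and Atp2a2 passed in every such fit, with adjusted p at most 0.0132 and 0.0467. All 6 genes passed in each of these fits in Eln+/- mice. Without aorta Eln+/+ replicate 2 and aorta Eln+/- replicate 3, the aortic arrays of highest heart muscle signal, 6 genes passed in Eln+/+ and 7 in Eln+/- mice. The Trdn difference was then 5.23 and 6.52.

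The remaining genes, the surface channel, the exchanger and the junctional protein, had small or conflicting differences. Cacna1c values were -0.67, -0.03, 0.13 and -0.37 in the Eln+/+ aorta and 0.03, -0.14, 0.34 and 0.16 in the Eln+/+ valve. For Eln+/- mice they were -0.35, -2.01, -0.12 and -0.57 in the aorta and 0.48, 0.03, 0.85 and 0.19 in the valve. The tissues overlapped in Eln+/+ mice and were apart in Eln+/- mice, where aorta replicate 2 was far below the other 3. The difference was 0.33 ± 0.33 (SE) in Eln+/+ mice, with a 95% interval from -0.36 to 1.03. In Eln+/- mice it was 1.15 ± 0.33, 2.22-fold, just short of the threshold (limma, adjusted p = 0.0507), and 0.73 without aorta replicate 2. Its second probe set gave -0.10 and 0.37, and neither passed.

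Slc8a1 was shown by probe set 1440201_at, with values of 0.22, -0.41, 0.05 and -0.05 in the Eln+/+ aorta and 0.08, 0.80, 0.15 and -0.45 in the Eln+/+ valve. The Eln+/- values were 0.48, -0.78, 0.25 and 0.81 in the aorta and -1.26, -0.37, -1.10 and -0.55 in the valve. The tissues overlapped in both genotypes, in Eln+/- mice through aorta replicate 2 alone. The difference was 0.19 ± 0.32 (SE) in Eln+/+ and -1.01 ± 0.32 in Eln+/- mice (limma, adjusted p = 0.865 and 0.0825). Without aorta Eln+/- replicate 2 the second value was -1.33 and passed (limma, adjusted p = 0.00948). Probe set 1425817_a_at of the same gene pointed the other way in Eln+/- mice, at 0.82 ± 0.29 (limma, adjusted p = 0.116). Its values there were -0.11, -1.26, 0.26 and -0.18 in the aorta and 0.56, 0.40, 0.62 and 0.40 in the valve. The tissues did not overlap for it, and the valve arrays lay close together, so the files give no single direction for the exchanger.

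Jph2 values were -0.08, 0.15, 0.39 and 0.17 in the Eln+/+ aorta and -0.24, 0.32, 0.07 and -0.40 in the Eln+/+ valve. Among Eln+/- mice they were 0.67, -1.25, -0.05 and 0.51 in the aorta and -0.23, -0.19, -0.05 and 0.05 in the valve. The groups overlapped throughout. The difference was -0.22 in Eln+/+ mice, with a 95% interval from -0.88 to 0.44, and -0.078 in Eln+/- mice, with an interval from -0.74 to 0.58. For this probe set the intervals leave room for changes of modest size and do not reach differences like that of Trdn or Casq2. Ratios hold no signal level, so a probe set too dim to respond cannot be told from an unchanged gene. The second Jph2 probe set, 1455404_at, gave -0.44 ± 0.26 (SE) in Eln+/+ and -0.078 ± 0.26 in Eln+/- mice, and neither passed.

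The genes that were higher in the valve also followed the heart muscle markers from array to array. As a description over the 16 arrays, which mix the tissues, Pearson's r with the heart muscle marker mean was 0.99 for Trdn and Casq2, 0.98 for Pln, 0.97 for Atp2a2, 0.94 for Hrc and 0.91 for Ryr2. It was 0.68 for Cacna1c, -0.25 for Jph2 and -0.51 for Slc8a1. Within the 8 aorta arrays alone r was 0.97 for Trdn, 0.95 for Pln and 0.90 for Casq2, and lower for Atp2a2 (0.73), Hrc (0.64) and Ryr2 (0.40). Jph2 and Cacna1c had r of 0.85 and 0.86 with the smooth muscle marker mean in the aorta, where aorta Eln+/- replicate 2 was lowest in both genes and in that mean. The same r was 0.74 for Slc8a1, 0.71 for Atp2a2, 0.63 for Hrc, 0.55 for Ryr2, 0.31 for Casq2, 0.23 for Trdn and -0.07 for Pln. Within the 8 valve arrays Cacna1c had r of -0.83 with smooth muscle and 0.76 with heart muscle markers. For Slc8a1 these were 0.87 and -0.95, and for Jph2 0.44 and -0.47. Over all 16 arrays the genes most like the mean of the 9 were Srl (r = 0.991), Eno3 (0.989), Txlnb (0.987), Myoz2 (0.986), Mlip (0.983), Apobec2 (0.982), Ank1 (0.981) and Ldb3 (0.981). Srl encodes sarcalumenin, a calcium binding protein of the SR, and Ldb3 is itself on the heart muscle marker list. Over the 8 valve arrays they were Trim63, Nipsnap2, Myoz2, Ndrg4 and Vtn, with r from 0.991 to 0.994.

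**Figure D3:**
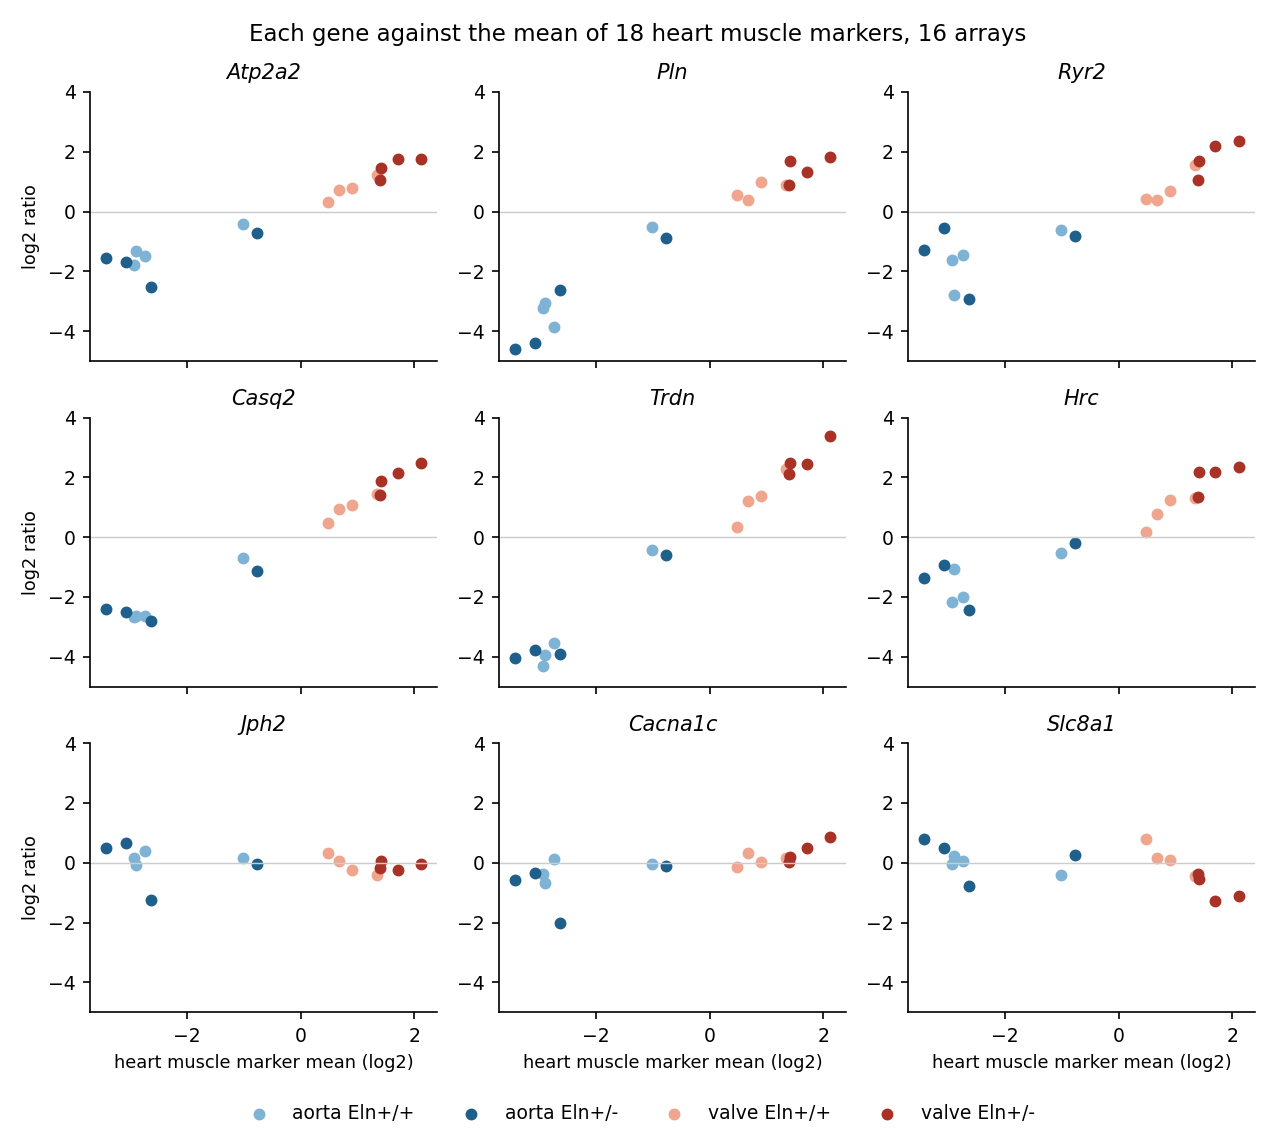
Log2 ratio of each of the 9 genes (y axis) against the mean log2 ratio of 18 heart muscle markers (x axis), 1 point per array, coloured by group. Trdn, Casq2 and Pln rise along the whole range, and aorta Eln+/+ replicate 2 and aorta Eln+/- replicate 3, at -1.02 and -0.77 on the x axis, lie between the other aorta arrays and the valve.

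Between genotypes in the valve, 7 of the 9 genes had higher means in Eln+/- than in Eln+/+ mice, but 0 passed the test (limma; 0% of all genes called). At an unadjusted p under 0.05 (limma) there were 4 of the 9 genes by their shown probe sets, Slc8a1 among them on the lower side. The share beside such counts, here and below, is over all probe sets (here 8.6%) and not over genes. The median log2 difference of the set was 0.75, against 0.032 over all genes. Trdn differed by 1.31 ± 0.82 (SE), Hrc by 1.14 ± 0.45, Ryr2 by 1.05 ± 0.51, Casq2 by 1.00 ± 0.43, Atp2a2 by 0.75 ± 0.34 and Pln by 0.74 ± 0.73. Adjusted p lay between 0.491 and 0.823 for these 6 genes (limma). The other Trdn probe sets gave 0.85 to 1.12, with unadjusted p from 0.00177 to 0.202 (limma), and none passed after adjustment. From the values above, the 4 Eln+/- valve arrays exceeded all 4 Eln+/+ valve arrays for Hrc, the only gene of the 9 whose shown probe set did so, against 3.51% of all genes. An exact two-sided permutation test gave p = 0.0286 for Hrc, the smallest that 70 assignments allow, and 0.0571 each for Trdn, Casq2, Ryr2, Atp2a2 and Pln, before any adjustment. For those 5 genes the overlap came from the lowest Eln+/- valve array, replicate 2, and the highest Eln+/+ valve arrays.

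Cacna1c differed by 0.29 ± 0.33 (SE) and Jph2 by -0.043 ± 0.31 between the valves of the genotypes. Slc8a1 had the lowest unadjusted p of the 9 shown probe sets, at -0.96 ± 0.32 (limma, unadjusted p = 0.00893 and adjusted p = 0.424; exact permutation p = 0.0571). Probe sets not shown had lower values, on the higher side in Eln+/- mice. They were Trdn 1426144_x_at (limma, unadjusted p = 0.00177) and Ryr2 1450123_at (limma, unadjusted p = 0.00479), and neither passed after adjustment. The other 3 Slc8a1 probe sets were on the higher side, at 0.56, 0.24 and, for the nearly flat 1420210_at, 0.058 ± 0.13. Probe set 1425817_a_at read 0.12, 0.10, -0.26 and -0.22 in the Eln+/+ valve against the 4 Eln+/- values above, with no overlap. Of all 27 probe sets, 24 had higher means in the Eln+/- valve, and 4 did not overlap between genotypes with Eln+/- higher, against 3% of all probe sets: that of Hrc, this one, and 1 each of Pln and Trdn. With the sex-linked signal as a covariate the median of the 9 genes in the valve was 1.20 and the Trdn difference 2.38, and again 0 passed (limma). That fit rests on the 1 Eln+/+ array of the female kind in each tissue, so it separates genotype and this signal poorly. In the valve this array was replicate 2, which had the lowest heart muscle marker mean of the valve (0.48).

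The heart muscle markers moved in the same direction in the valve: 18 of 18 had higher means in Eln+/- mice, with a median difference of 0.77 and 0 passing the test (limma). Their mean was 0.85 ± 0.37 (SD, n = 4) in Eln+/+ and 1.66 ± 0.34 in Eln+/- valves, while the smooth muscle marker mean was -0.18 ± 0.43 and -0.95 ± 0.64. With the heart muscle marker mean as a covariate over the 8 valve arrays, the genotype difference was -0.16 for Trdn, 0.25 for Hrc, -0.12 for Ryr2, 0.11 for Casq2, 0.049 for Atp2a2 and 0.23 for Pln. The median of the 9 genes was then 0.049. The covariate itself did not overlap between the genotypes, from 0.48 to 1.35 on the Eln+/+ and from 1.39 to 2.12 on the Eln+/- valve arrays, so the fit compares the genotypes by extrapolation and cannot tell genotype and heart muscle signal apart. The 95% interval for Atp2a2 ran from -0.51 to 0.61. Slc8a1 was -0.026 and Cacna1c -0.18 in that fit, and Jph2 was 0.31.

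**Figure D4:**
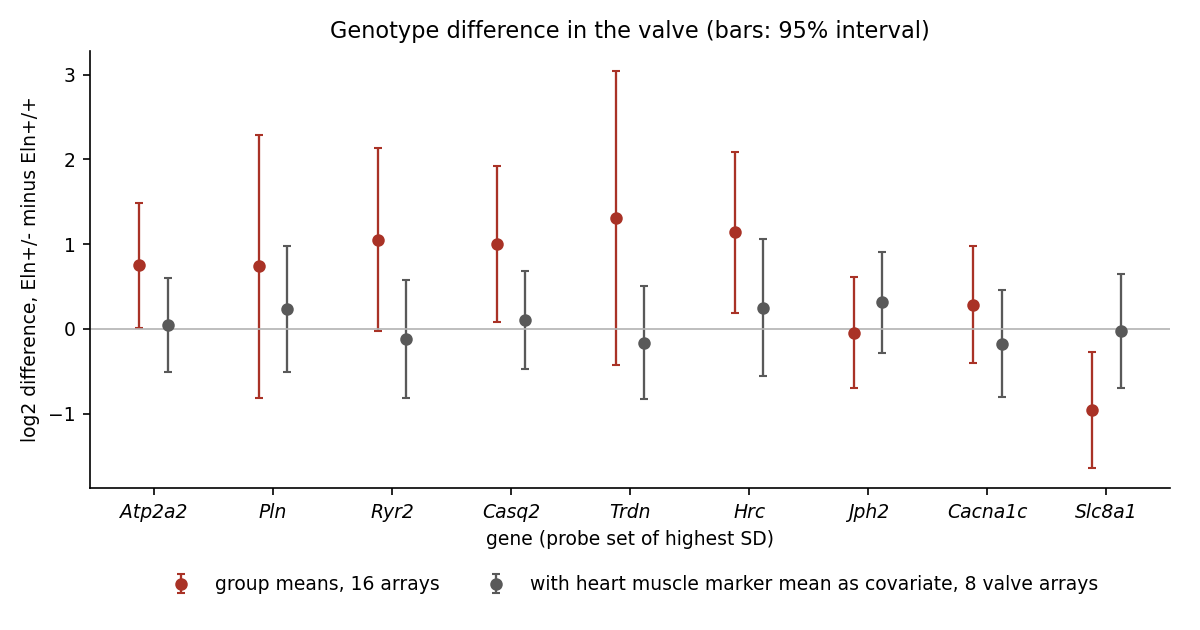
Eln+/- minus Eln+/+ in the valve on the log2 scale (y axis) for the 9 genes (x axis), with 95% intervals, from the group means (red) and with the heart muscle marker mean as a covariate over the 8 valve arrays (grey), a covariate that does not overlap between the genotypes. The red values of the 6 genes that were higher in the valve lie from 0.74 to 1.31, and their grey values lie from -0.16 to 0.25.

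In the aorta the estimated genotype differences of the shown probe sets were small, within -0.53 to 0.24. Means were higher in Eln+/- mice for 3 of the 9 genes and lower for 6. None passed the test (limma; 0% of all genes called), and at an unadjusted p under 0.05 there were 0 of the 9 and 5.51% of all probe sets. By these probe sets the 3 genes of lowest p were Cacna1c at -0.53 ± 0.33 (SE), Atp2a2 at -0.36 ± 0.34 and Slc8a1 at 0.24 ± 0.32. Their adjusted p lay from 0.896 to 0.943 (limma). Estimates were less precise for Pln at -0.47 ± 0.73, Trdn at -0.027 ± 0.82 and Ryr2 at 0.22 ± 0.51. For these genes a sizeable difference in either direction is not excluded. Aorta Eln+/- replicate 2 was the lowest array for Cacna1c, Atp2a2 and Slc8a1, and without it the differences were -0.11, -0.054 and 0.56. Over the fits without 1 array the median of the 9 ranged from -0.41 to 0.24, around a value of -0.053 with all arrays. By their shown probe sets the genotypes overlapped for all 9 genes. Of all genes 1.37% were apart with Eln+/- higher and 1.41% with Eln+/- lower. Among the 27 probe sets 1 did not overlap, Trdn 1426143_at, at 0.31 ± 0.31 with Eln+/- higher (limma, adjusted p = 0.919).

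The genotype difference of the valve minus that of the aorta was above 0 for 8 of the 9 genes, with a median of 0.92 against 0.044 over all genes. This difference of differences was called for 0 genes (limma, 0% of all genes). At an unadjusted p under 0.05 there were 2 of the 9 by their shown probe sets, and 7.72% of all probe sets. It was -1.20 ± 0.46 (SE) for Slc8a1, 1.11 ± 0.49 for Atp2a2 and 0.82 ± 0.46 for Cacna1c, with adjusted p from 0.626 to 0.688 (limma). The larger tissue differences in Eln+/- mice were therefore not shown to differ from those in Eln+/+ mice. Without aorta Eln+/- replicates 2 and 4 the median was 0.29.

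Other genes of calcium cycling, 79 on 6 role lists of which 70 were measured, were also compared between the tissues. In Eln+/+ mice 40 were higher and 30 lower in the valve, with a median difference of 0.081. Of the 70, 3 were called higher and 0 lower (limma), against 1.19% and 0.126% of all genes. Sln (sarcolipin), a pump regulator best known from the atria, was higher by 6.36 ± 0.66 (SE), 81.9-fold (limma, adjusted p = 0.000286). Cacna2d2, an accessory subunit of voltage-gated calcium channels, was higher by 4.25 ± 0.41, 19.0-fold (limma, adjusted p = 0.000181), and Srl by 2.74 ± 0.53, 6.68-fold (limma, adjusted p = 0.0187). In the 3 role lists with no call the gene of lowest p was Tcap (2.19, dyad and T-tubule structure), Camk2a (1.79, kinases and sensors) and Vdac1 (0.65, mitochondrial calcium).

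Of the 70, in Eln+/- mice, 16 were called higher and 5 lower in the valve (limma), with a median difference of 0.30. Of all genes, 4.41% were called higher and 2.65% lower in these mice. Among pump genes, Sln was higher by 6.45 and the pump isoform Atp2a3 lower by 1.20 on the log2 scale (a difference of -1.20). Among release genes, Srl (3.83), the SR counter-ion channel Tmem38a (1.93) and Asph (1.58), whose locus also encodes the SR protein junctin, were higher, while Tmem38b (-1.12) was lower. At the surface, Cacna2d2 (4.81) and the T-type channel genes Cacna1h (2.71) and Cacna1g (1.72) were higher, and the plasma membrane pump Atp2b4 (-1.84) and the channel regulator Gem (-0.86) were lower. Of the structural genes, Tcap (3.27) and Myot (1.82), both Z-disc genes, were higher. Of kinases and sensors, Camk2a (3.10), Rcan1 (0.98) and Prkar1a (0.67) were higher and the phosphodiesterase Pde3a (-1.64) lower. The mitochondrial genes Vdac1 (1.16) and Micu2 (0.81) were higher.

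Between genotypes 0 of these 70 genes passed in the valve or the aorta (limma). In the valve 46 were higher and 24 lower in Eln+/- mice, with a median difference of 0.16. The genes of lowest p in the 6 lists were Atp2b4 (-1.63 ± 0.36), Mrln (1.15 ± 0.28), which encodes the pump inhibitor myoregulin, Asph (1.05 ± 0.27), Vdac1 (0.54 ± 0.15), Pde3a (-0.76 ± 0.24) and Myot (0.85 ± 0.34), with adjusted p from 0.368 to 0.506 (limma). In the aorta 33 were higher and 37 lower.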

How the data were processed

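The authors deposited linear ratios, 1 column per array. RMA is named for the normalization, per the submitters' processing notes. The division of each probe set by its median over the 16 arrays was read from the values: of 45101 medians, 39827 were 1 (within 1e-06), 5274 were lower and 0 higher. Background correction, floors and genome build are not given in the sources used here. Array medians lay between 0.957 and 1.00.

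From these ratios log2 values were taken, 64 control probe sets were left out, and 45037 were tested. The platform annotation gave 34945 of them 1 gene, 932 several and 9160 none. A model of 4 group means over all 16 arrays was fitted with limma 3.58.1 (lmFit, eBayes, R 4.3.3, 12 residual and 3.60 prior degrees of freedom), two-sided, with Benjamini-Hochberg adjustment over all probe sets and a threshold of 0.05. Exact permutation tests over 70 assignments (scipy 1.17.1) were run for single genes. The fit was tested on simulated data.

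The genes, the lists of other calcium genes and the marker lists were chosen with earlier results of these data known. The text names all 9 genes in the tissue and valve comparisons, the 3 of lowest p elsewhere, and of each role list the called genes, at most 3 a direction by p, or else the 1 of lowest p. Genes most alike were the 8 highest by correlation over 16 arrays and the 5 highest over 8 valve arrays. Alternatives were array weights, another scaling, covariates, a replicate block, the median over probe sets and leaving out arrays. Dim probe sets could not be filtered, since ratios hold no level. Proteins were not analysed here.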

Additional observations from a re-analysis of the deposited data

Results flagged for a closer look

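Single arrays lay far from the other 3 of their group, by the 95% critical value of Dixon's gap ratio, in 9 of 108 combinations of probe set and group. Chance alone gives about 1 in 20, and probe sets of 1 gene are not independent. Aorta Eln+/+ replicate 2 was far above the others of its group for Casq2 (-0.68), for Atp2a2 1416551_at (-0.29), for Pln 1460332_at (-0.40) and for Trdn 1451940_x_at (-1.27), with a heart muscle marker mean of -1.02. Aorta Eln+/- replicate 3 was far above the others for Trdn 1451801_at (-0.60), with a heart muscle marker mean of -0.77. Aorta Eln+/- replicate 2 was far below the others for Atp2a2 1427250_at (-0.75) and Jph2 1455404_at (-1.01), with a smooth muscle marker mean of -0.88. Aorta Eln+/+ replicate 3 was high for Atp2a2 1427251_at (0.32), and aorta Eln+/+ replicate 4 was low for Cacna1c 1435730_at (-0.53). Causes of these values were not tested.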

How the results depend on the processing

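In Eln+/- mice, 6 or 7 genes were called in every alternative and every fit without 1 array. In Eln+/+ mice the number of genes called ranged from 2 to 6 over the fits without 1 array, and the median difference from 1.99 to 2.62. Same-numbered arrays did not deviate together (correlations of deviations from -0.17 to 0.071), so the numbers gave no pairing. Mice shared between the tissues under other numbers were not tested for. With the replicate number as a block, 4 genes were called in Eln+/+ mice, where Ryr2 (2.38, adjusted p = 0.0694) and Pln (3.36, adjusted p = 0.0734) no longer passed in limma, and 7 in Eln+/- mice, where Cacna1c (1.15, adjusted p = 0.0349) did. In Eln+/+ mice Pln passed the threshold no longer with the sex-linked covariate (3.35, limma, adjusted p = 0.0511), nor Ryr2 with the 3′ minus 5′ control covariate (2.40, limma, adjusted p = 0.074). Over all alternatives other than leaving out 1 array, Pln stayed at or above 2.68 and Ryr2 at or above 2.15 there. Slc8a1 in Eln+/- mice passed with array weights (-1.13, limma, adjusted p = 0.0236). Cacna1c in Eln+/- mice passed with arrays centred on their medians (limma, adjusted p = 0.0475) and without the 2 aorta arrays of highest heart muscle signal (limma, adjusted p = 0.0436), a choice made after seeing the data.

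Some signs turned, small and large. With the sex-linked covariate the aortic genotype difference was 0.099 for Atp2a2 and -0.088 for Slc8a1. With the 3′ minus 5′ covariate the Jph2 tissue difference in Eln+/- mice was 0.022. With the median over probe sets, Slc8a1 was 0.078 between tissues in Eln+/- mice (-1.01 with its shown probe set) and -0.011 between aortic genotypes, and Jph2 was 0.050 between valve genotypes. With the heart muscle covariate in the valve, which does not overlap between the genotypes, Ryr2 was -0.12 (1.05 without it), Trdn -0.16 (1.31 without it), Cacna1c -0.18 and Jph2 0.31, and the median of the set was 0.049. Without aorta Eln+/- replicates 2 and 4 the median tissue difference in Eln+/- mice was 2.56, the median difference of differences was 0.29 and the aortic genotype difference of Atp2a2 was 0.065. Over fits without 1 array, Jph2 ranged from -0.48 to 0.16 between tissues in Eln+/- mice and from -0.16 to 0.084 between valve genotypes, and Slc8a1 from -0.029 to 0.39 between tissues in Eln+/+ mice. Apart from what a covariate or a left-out array changes by its construction, the cause was not tested. Among single-gene values under alternatives, 847 kept their direction and their side of the threshold, 31 lost the call, 6 gained it and 16 turned in sign.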
